A study of Mus musculus with 8 samples.

Results

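The genes described here were 41 genes of fatty acid oxidation, ketone body metabolism, peroxisomes and lipid handling, out of 55414 genes in the count table. They were listed by symbol and matched through their Ensembl IDs. RNA-seq had been performed on Paneth cells sorted by FACS from mouse small intestine. Wild type mice gave the 4 libraries of the WT group. The 4 libraries of the TG group came from transgenic mice, genotype DT TG, with diphtheria toxin expression in the Paneth cells. Diphtheria toxin blocks protein synthesis. The study lists this experiment under depletion of mature Paneth cells, and says of its Paneth cell samples in general that they came from individual C57BL/6J mice. The promoter of the transgene and the age and sex of the mice are not stated in the sources used. Expression of the toxin transgene was not analysed here.

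Total counts lay between 13107397 and 16218434 per library. The label of the cells was checked on 8 Paneth cell markers, which made up 353586 to 533876 CPM (counts scaled to library size) in WT and 372585 to 457808 CPM in TG. All CPM given here were scaled by the TMM factors of edgeR. Of these 8 markers, Mmp7, Ang4 and Mptx2 were lower in TG. Of 5 stem cell markers Axin2 was higher and Smoc2 lower. Of 13 enterocyte markers tested 7 were higher in TG and 0 lower, with a median log2 fold change of 1.75. Of the goblet, enteroendocrine, tuft and immune markers 6 of 6, 4 of 6, 4 of 5 and 1 of 7 passed the filter, and 0 of these were called. Agr2, a goblet marker, had every TG library below every WT library (log2 fold change -0.65, adjusted p = 0.0532 by edgeR). Of the 6 goblet markers 4 had a log2 fold change below 0 and 2 above it. Adgre1, Cdh5, Kdr and Adipoq were at 0 in all 8 libraries. In both groups replicates 1 and 2 held 0 counts from Y-linked genes, while replicates 3 and 4 held 897 to 1564 of them.

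Cells burn fatty acids by first coupling them to coenzyme A and passing them into the mitochondrion as carnitine esters. Inside, repeated rounds of dehydrogenation, hydration, a further dehydrogenation and thiolysis shorten the chain to acetyl-CoA, which can feed the citric acid cycle or ketone bodies. Peroxisomes run a related pathway for very long and branched chains, and many genes of both pathways are known targets of the lipid-sensing nuclear receptor PPARalpha. In the small intestine the pathway is best known from absorptive enterocytes and from stem cells at the crypt base, which are neighbours of the Paneth cells.

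Fatty acid oxidation genes were on balance higher in TG than in WT Paneth cells. The filter on low counts left 38 of the 41 genes, and of these 20 were higher in TG, 0 were lower and 18 were not called (edgeR quasi-likelihood test, adjusted p below 0.05). Over all 11929 genes tested, 985 or 8.26% were higher and 1151 or 9.65% were lower. The median log2 fold change was 0.36 over the 38 genes and 0.01 over all genes tested. The larger changes were those of the mitochondrial thioesterase Acot2, its cytosolic relative Acot1, the carnitine palmitoyltransferase Cpt1a and the carnitine carrier Slc25a20. The 7 enzymes called in the mitochondrial spiral rose by less than 1 on the log2 scale, and neither the acyl-CoA synthetases nor the ketone body enzymes listed here held a called gene. In bulk RNA a different share of cells of 1 type and a different amount of RNA per cell cannot be told apart.

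**Figure D1:**
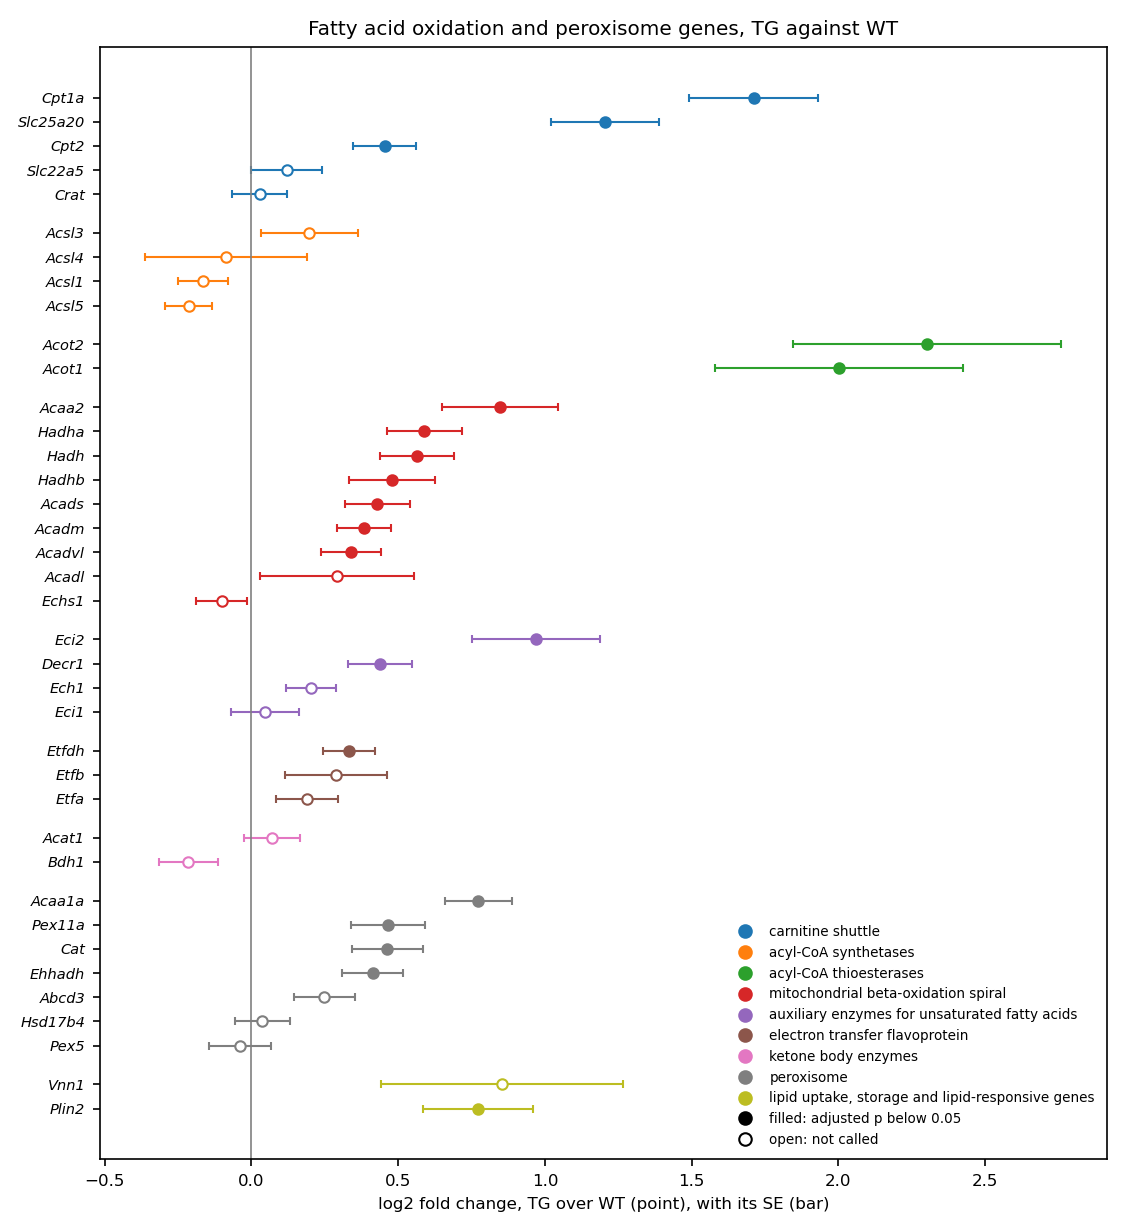
Log2 fold change of TG over WT (x axis) for the 38 tested genes, grouped and coloured by role, with the SE as a bar. Filled points mark the 20 genes with an adjusted p below 0.05, all to the right of 0, and open points mark the 18 genes not called.

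The carnitine shuttle carries long-chain fatty acids across the mitochondrial membranes, and 3 of its 5 genes were higher in TG. Cpt1a (ENSMUSG00000024900, chr19:3371853-3437996, plus strand on GRCm39) encodes the enzyme of the outer membrane that joins the acyl chain to carnitine and limits the rate of entry. Its level was 41.1, 35.5, 44.0 and 43.1 CPM in WT replicates 1 to 4 and 143, 186, 82.0 and 125 CPM in TG replicates 1 to 4. The lowest TG library, replicate 3, was still well above the highest WT library. The means were 40.9 ± 3.83 CPM in WT and 134 ± 43.0 CPM in TG (SD, n = 4 each), a 3.27-fold difference with a log2 fold change of 1.71 (SE 0.22), adjusted p = 0.00181 by edgeR. Slc25a20 (ENSMUSG00000032602, chr9:108539250-108562760, plus strand) encodes the carrier that exchanges acylcarnitine for free carnitine across the inner membrane. It was at 7.91, 5.98, 6.08 and 5.13 CPM in the WT libraries and at 14.7, 17.9, 9.87 and 15.5 CPM in the TG libraries, with no overlap of the groups. Its 2.31-fold difference had a log2 fold change of 1.21 (SE 0.18), adjusted p = 0.00132 by edgeR. Cpt2, which releases the acyl chain from carnitine on the matrix side, rose less, with a log2 fold change of 0.45 (SE 0.11), adjusted p = 0.0106 by edgeR. The carnitine importer Slc22a5 (log2 fold change 0.12, SE 0.12) and the carnitine acetyltransferase Crat (0.03, SE 0.09) were not called.

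The 2 acyl-CoA thioesterases, which cleave acyl-CoA back to free fatty acid, had the largest fold changes of the 38 genes at the lowest WT levels per kb among the genes called. Acot2 (ENSMUSG00000021226, chr12:84034428-84040647, plus strand), the mitochondrial form, was at 1.28, 0.487, 0.802 and 2.01 CPM in WT replicates 1 to 4 and at 6.38, 8.36, 2.20 and 5.62 CPM in TG. The TG replicate 3 library lay just above the highest WT library, and the other 3 TG libraries stood far above it. The difference was 4.93-fold, with a log2 fold change of 2.30 (SE 0.46), adjusted p = 0.00744 by edgeR. Acot1 (ENSMUSG00000072949, chr12:84056256-84065145, plus strand), the cytosolic form, lies on the same stretch of chromosome 12 and was at 1.68, 0.487, 2.07 and 1.11 CPM in WT and 5.62, 8.93, 2.76 and 4.33 CPM in TG. Here too the groups did not overlap, and TG replicate 3 was the closest to WT. The difference was 4.01-fold, with a log2 fold change of 2.00 (SE 0.42), adjusted p = 0.00887 by edgeR. These paralogs share sequence, so that 17.1% of all 75-base windows of the Acot1 transcripts and 21.4% of those of Acot2 also occurred in transcripts of other genes. How the counting tool placed such reads is not stated in the sources used, and the split between both genes is therefore uncertain.

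The acyl-CoA synthetases, which couple long-chain fatty acids to coenzyme A, held no called gene. Acsl1 had a log2 fold change of -0.17 (SE 0.09), Acsl3 of 0.20 (SE 0.17), Acsl4 of -0.09 (SE 0.28) and Acsl5 of -0.21 (SE 0.08). Acsl5, the most abundant of them per kb, was the only one of the 41 genes for which every TG library (71.5 to 78.7 CPM) lay below every WT library (83.8 to 95.3 CPM), and its adjusted p was 0.0778 with edgeR and 0.0360 with DESeq2.

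In the mitochondrial spiral itself 7 of 9 genes were higher in TG. The first step is taken by the acyl-CoA dehydrogenases, each for another chain length. Acadvl for very long chains (log2 fold change 0.34, SE 0.10, adjusted p = 0.0333 by edgeR), Acadm for medium chains (log2 fold change 0.38, SE 0.09, adjusted p = 0.0120) and Acads for short chains (log2 fold change 0.43, SE 0.11, adjusted p = 0.0166) rose by small amounts. Acadl, the long-chain enzyme, varied more within the groups, between 41.2 and 76.3 CPM in WT and between 48.8 and 96.9 CPM in TG, and was not called (log2 fold change 0.29, SE 0.26). In both groups replicates 1 and 2 (76.3 and 66.5 CPM in WT, 74.9 and 96.9 in TG) lay above replicates 3 and 4 (41.2 and 47.4 CPM in WT, 48.8 and 62.7 in TG). This spread thus followed the split by Y-linked counts.

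The later steps for long chains are joined in the trifunctional protein, which is built from the products of Hadha and Hadhb. Hadha (ENSMUSG00000025745, chr5:30323302-30360187, minus strand), which carries the hydratase and dehydrogenase activities, was at 74.9, 65.7, 76.0 and 79.3 CPM in WT replicates 1 to 4 and at 109, 141, 85.9 and 109 CPM in TG. No TG library fell within the WT range, and the 1.504-fold difference had a log2 fold change of 0.59 (SE 0.13), adjusted p = 0.00748 by edgeR. Hadhb, the thiolase subunit, had a similar log2 fold change of 0.48 (SE 0.15), adjusted p = 0.0402 by edgeR, but its TG replicate 3 (31.5 CPM) lay within the WT range of 26.9 to 35.1 CPM. Of the 75-base windows of Hadhb, 6.49% occurred in other genes, among them the pseudogene Hadhb-ps. The annotated spans of both genes overlap on opposite strands, and the strand setting of the counting is not stated in the sources used. Other called genes also overlap an expressed gene on the opposite strand. Among them are Acaa1a (Myd88, 1927 counts over 8 libraries), Acadvl (Dvl2, 1150), Cpt2 (Czib, 1517) and Etfdh (Ppid, 2320).

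For shorter chains the same steps are taken by separate enzymes. Hadh (ENSMUSG00000027984, chr3:131027068-131065750, minus strand), the hydroxyacyl-CoA dehydrogenase for medium and short chains, was at 70.3, 47.3, 69.6 and 76.3 CPM in WT and 90.1, 109, 94.2 and 96.6 CPM in TG. WT replicate 2 was the lowest library, and every TG library exceeded every WT library. Its 1.48-fold difference had a log2 fold change of 0.56 (SE 0.13), adjusted p = 0.00943 by edgeR. Acaa2 (ENSMUSG00000036880, chr18:74911948-74953492, plus strand), the thiolase that splits off acetyl-CoA, was at 60.7, 37.8, 49.7 and 61.1 CPM in WT and 95.9, 123, 67.7 and 89.9 CPM in TG. The distance between the groups was small, since TG replicate 3 stood not far above WT replicates 1 and 4. The 1.80-fold difference had a log2 fold change of 0.85 (SE 0.20), adjusted p = 0.0184 by edgeR, and without WT replicate 3 the adjusted p was 0.0502. Echs1, the short-chain hydratase, was not called (log2 fold change -0.10, SE 0.09).

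Unsaturated fatty acids need auxiliary enzymes that move or remove their double bonds, and 2 of the 4 listed here were higher in TG. Eci2 (ENSMUSG00000021417, chr13:35161718-35211079, minus strand), an enoyl-CoA isomerase found in mitochondria and peroxisomes, was at 17.0, 13.7, 13.5 and 14.8 CPM in WT replicates 1 to 4 and at 29.6, 40.6, 17.3 and 28.2 CPM in TG. The gap between the groups was narrow only at TG replicate 3, which lay next to WT replicate 1. The difference was 1.96-fold, with a log2 fold change of 0.97 (SE 0.22), adjusted p = 0.0159 by edgeR. Decr1, the dienoyl-CoA reductase, rose with a log2 fold change of 0.44 (SE 0.11), adjusted p = 0.0142 by edgeR. Eci1 (0.05, SE 0.11) and Ech1 (0.20, SE 0.09), given as log2 fold changes, were not called. Electrons from the dehydrogenases pass through the electron transfer flavoprotein, whose subunits are encoded by Etfa and Etfb, to the respiratory chain by way of Etfdh. Of these Etfdh was called (log2 fold change 0.33, SE 0.09, adjusted p = 0.0204 by edgeR). Etfa (0.19, SE 0.11) and Etfb (0.29, SE 0.17) were not, and 18.3% of the 75-base windows of Etfb were shared with Etfbl.

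**Figure D2:**
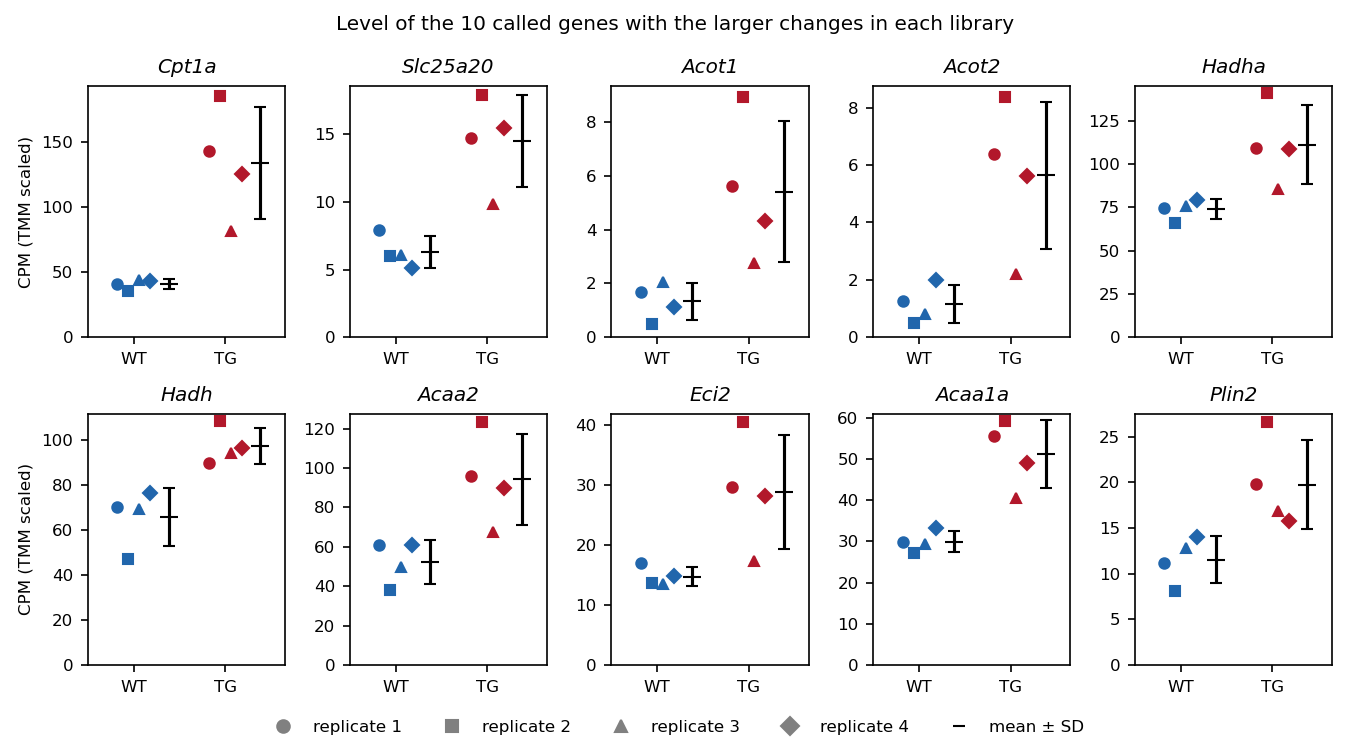
CPM scaled by TMM factors (y axis, from 0) in each WT and TG library for the 10 called genes whose log2 fold change reached 0.5, the marker shape giving the replicate and the bar the mean ± SD of 4 libraries. In all 10 panels every TG library lies above every WT library, with TG replicate 2 the highest.

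Ketone bodies are made from acetyl-CoA and can be used again as fuel. Acat1, which joins and splits acetoacetyl-CoA, was at 44.6 ± 5.68 CPM in WT and 46.9 ± 1.70 CPM in TG (SD, n = 4 each), with a log2 fold change of 0.07 (SE 0.10). Bdh1, which converts acetoacetate and beta-hydroxybutyrate into each other, was at 63.6 ± 7.27 CPM in WT and 54.8 ± 5.42 CPM in TG, with a log2 fold change of -0.21 (SE 0.10). Neither was called, with adjusted p of 0.637 and 0.152 by edgeR. The genes listed here do not hold every enzyme of this pathway.

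Of the 8 peroxisome genes 7 were tested, and 4 of these were higher in TG. Acaa1a (ENSMUSG00000036138, chr9:119168742-119182956, plus strand), the peroxisomal thiolase, was at 29.9, 27.1, 29.4 and 33.2 CPM in WT replicates 1 to 4 and at 55.6, 59.3, 40.5 and 49.0 CPM in TG. All 4 TG libraries lay above all 4 WT libraries. The 1.71-fold difference had a log2 fold change of 0.77 (SE 0.11), adjusted p = 0.00107 by edgeR, the lowest adjusted p of the 38 genes. Its paralog Acaa1b, which shared 8.98% of its windows with Acaa1a, was close to absent, with 0 counts in all 4 WT libraries and 2 to 9 counts per TG library, 18 in all. Against a floor of 3 counts over the WT group its level in TG gave a ratio of 5.43. This ratio takes the TG counts as exact, and 9 of the 18 came from TG replicate 4. Acaa1b did not pass the filter and was not tested. Ehhadh, the bifunctional enzyme of the peroxisomal spiral, rose with a log2 fold change of 0.41 (SE 0.10), adjusted p = 0.0154 by edgeR. Pex11a, which takes part in the division of peroxisomes, rose with a log2 fold change of 0.46 (SE 0.13), adjusted p = 0.0211, although TG replicate 3 (18.6 CPM) lay just below WT replicate 1 (18.8 CPM). Cat, the catalase that removes the hydrogen peroxide formed there, rose with a log2 fold change of 0.46 (SE 0.12), adjusted p = 0.0195. Hsd17b4 (0.04, SE 0.09), the import receptor Pex5 (-0.04, SE 0.10) and the fatty acid transporter of the peroxisomal membrane Abcd3 (0.25, SE 0.10), given as log2 fold changes, were not called.

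The last 4 genes serve the uptake and storage of lipid or respond to it. Plin2 (ENSMUSG00000028494, chr4:86565912-86588459, minus strand), which coats lipid droplets, was at 11.2, 8.14, 12.8 and 14.0 CPM in WT and 19.8, 26.6, 16.8 and 15.7 CPM in TG. TG replicate 4 was only slightly above WT replicate 4, and WT replicate 2 was the lowest library. The 1.71-fold difference had a log2 fold change of 0.77 (SE 0.19), adjusted p = 0.0162 by edgeR, and the call was lost when the replicate number was added to the fit. Vnn1, the pantetheinase, was not called (log2 fold change 0.85, SE 0.41), and its TG libraries spread from 0.687 to 4.02 CPM around a WT range of 0.936 to 1.52 CPM. Leaving out 1 library at a time, its log2 fold change ranged from 0.49 to 1.17 and its adjusted p by edgeR from 0.0329 to 0.426, and it was called higher without TG replicate 1. Angptl4, the secreted inhibitor of lipoprotein lipase, did not pass the filter, with 38, 51, 5 and 34 counts in TG replicates 1 to 4 against 3, 6, 7 and 7 counts in WT. Of its TG libraries 3 were high and replicate 3 was within the WT range. The fatty acid transporter Cd36 held 8 counts in all TG libraries and 3 in all WT libraries, too few for a comparison.

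Across the 38 tested genes, 19 had all 4 TG libraries above all 4 WT libraries, against 1193 or 10% of all genes tested. The order within the groups was largely shared among the 20 genes called. TG replicate 2 was the highest TG library for 18 of them, and TG replicate 3 the lowest for 15. Within WT, replicate 4 was the highest for 14 and replicate 2 the lowest for 13. Summed over the 20 genes, the level was 986, 1199, 785 and 960.1 CPM in TG replicates 1 to 4 and 633, 536, 614 and 669 CPM in WT. TG replicate 2 weighed on the number of calls. Without it 13 of the 20 genes remained called, among 485 or 4.01% of all genes tested, and those lost were Acadvl, Acads, Hadhb, Decr1, Etfdh, Pex11a and Cat. Acadvl and Hadhb were also lost in 5 further fits that each left out 1 other library, Pex11a without TG replicate 1 and without WT replicate 4, Etfdh without TG replicate 1, and Cat without WT replicate 1. Of the leave-one-out fits, Acaa2 was lost only in that without WT replicate 3. Cpt1a, Slc25a20, Cpt2, Acot1, Acot2, Acadm, Hadha, Hadh, Eci2, Acaa1a, Ehhadh and Plin2 were called whichever library was left out, with adjusted p of at most 0.0486 for Acadm and 0.0129 for Cpt1a by edgeR.

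**Figure D3:**
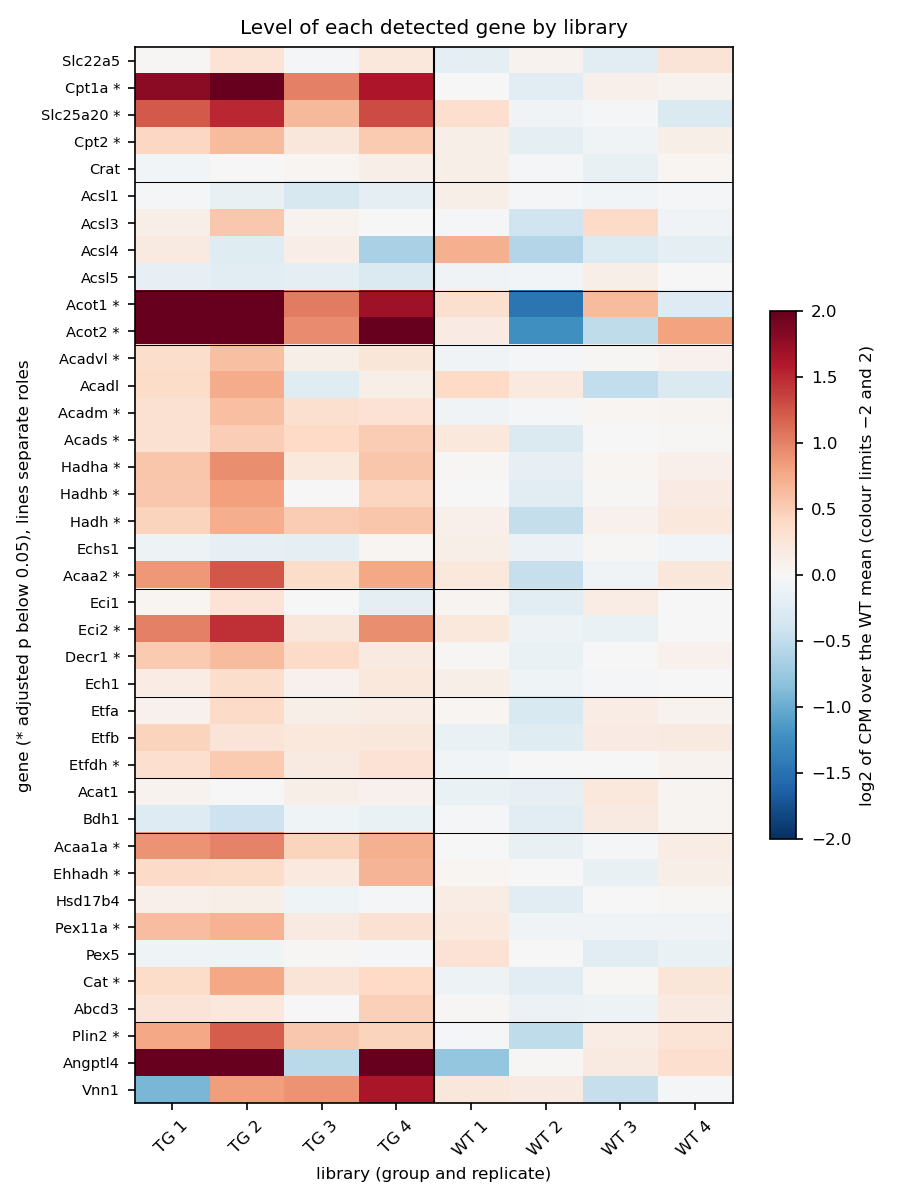
Level of the 38 tested genes and Angptl4 in each library, as log2 of CPM over the WT mean of that gene (colour, cut at −2 and 2), with genes ordered by role and those called marked with an asterisk. Most cells of the rows marked with an asterisk are red in the TG columns, palest at TG 3 for 15 of these 20 genes and nearly white there for Hadhb, while Acsl5 and Bdh1 are pale blue in all 4 TG columns.

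The change was compared between the libraries without Y-linked counts (replicates 1 and 2) and those with them (replicates 3 and 4). All 20 called genes had a log2 fold change above 0 on both sides, and it was larger without Y-linked counts for 18 of them. The median over the 20 genes was 0.77 without and 0.38 with Y-linked counts. Within the libraries without Y-linked counts, 2 against 2, 16 of the 20 called genes were called again, and 4.15% of all genes tested there were higher. Angptl4 made it 17 of the 41 genes. It passed the filter there only through its TG libraries (38 and 51 counts, against 3 and 6 in WT), so its call is not support. Within the libraries with Y-linked counts 2 genes were called, Cpt1a and Slc25a20 (0.94% of all genes tested there). Cpt1a had a log2 fold change of 2.10 without and 1.25 with Y-linked counts, and Slc25a20 1.23 and 1.17. In a test of this difference as an interaction term, 10 of the 38 genes had an unadjusted p below 0.05, against 5.73% of all genes tested, and 0 passed the adjustment, with 0.540 as the lowest adjusted p by edgeR. The highest and the lowest TG library for most of these genes fell on either side, so that a difference by Y-linked counts and one by single libraries cannot be told apart.

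Markers of absorptive enterocytes moved in the same direction. Of 14 markers 13 were tested, 7 were higher in TG and 0 were lower, and the median log2 fold change was 1.75. Their summed level was 664 to 739 CPM in TG and 489 to 578 CPM in WT. Without Anpep and Mgam, which made up most of it, the sum was 117, 138, 211 and 198 CPM in TG replicates 1 to 4 and 53.8, 56.0, 68.0 and 98.9 CPM in WT. None of these markers was at 0 in every library, and Lct and Apoc3 were at 0 in 1 WT library. Among the TG libraries replicate 3 had the highest sum of the 12 markers and the lowest level of 15 of the 20 called genes. Among the WT libraries replicate 4 had the highest sum of the 12 markers and the highest level of 14 of the 20. The FACS sort is meant to keep Paneth cells, and how many enterocytes passed it was not measured here. The part of enterocyte RNA in the change of the oxidation genes was not tested.

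**Figure D4:**
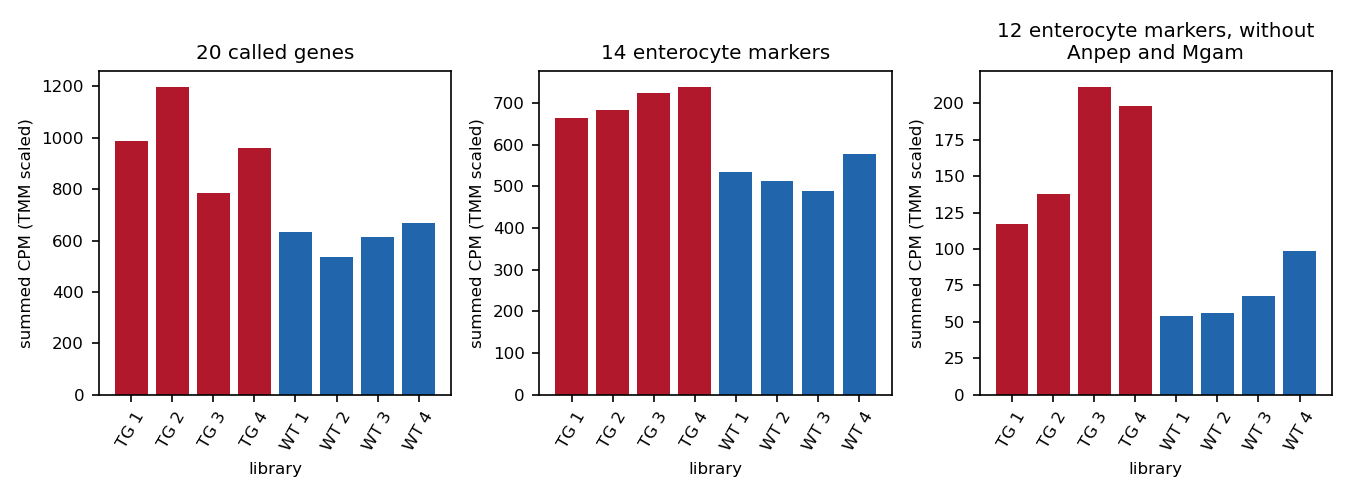
Summed CPM per library (bars from 0; TG red, WT blue) for the 20 called genes, for 14 enterocyte markers and for 12 of them without Anpep and Mgam. All 3 sums are higher in every TG library than in every WT library, TG 3 has the lowest TG bar in the first panel and the highest in the last, and WT 4 has the highest WT bar in all 3.

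Levels were compared between genes only as CPM per kb of merged exon length. In WT the highest value was that of Ehhadh with 18.3 ± 1.35 CPM per kb (SD, n = 4), followed by Ech1 with 16.24 ± 0.994, Acadl with 14.8 ± 4.19, Acsl5 with 14.8 ± 0.890 and Bdh1 with 13.9 ± 1.59. The ranges of neighbours in this order overlapped. With the length of the longest annotated transcript in place of merged exons, Ech1 came first and Acsl5 second, so the order depended on the length used. Cpt1a stood at rank 23 of 41 in WT, with 3.74 ± 0.350 CPM per kb, and at rank 8 in TG, with 12.3 ± 3.93. Acot1 and Acot2 remained at the low end in WT, with 0.341 ± 0.176 and 0.476 ± 0.275 CPM per kb.

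**Figure D5:**
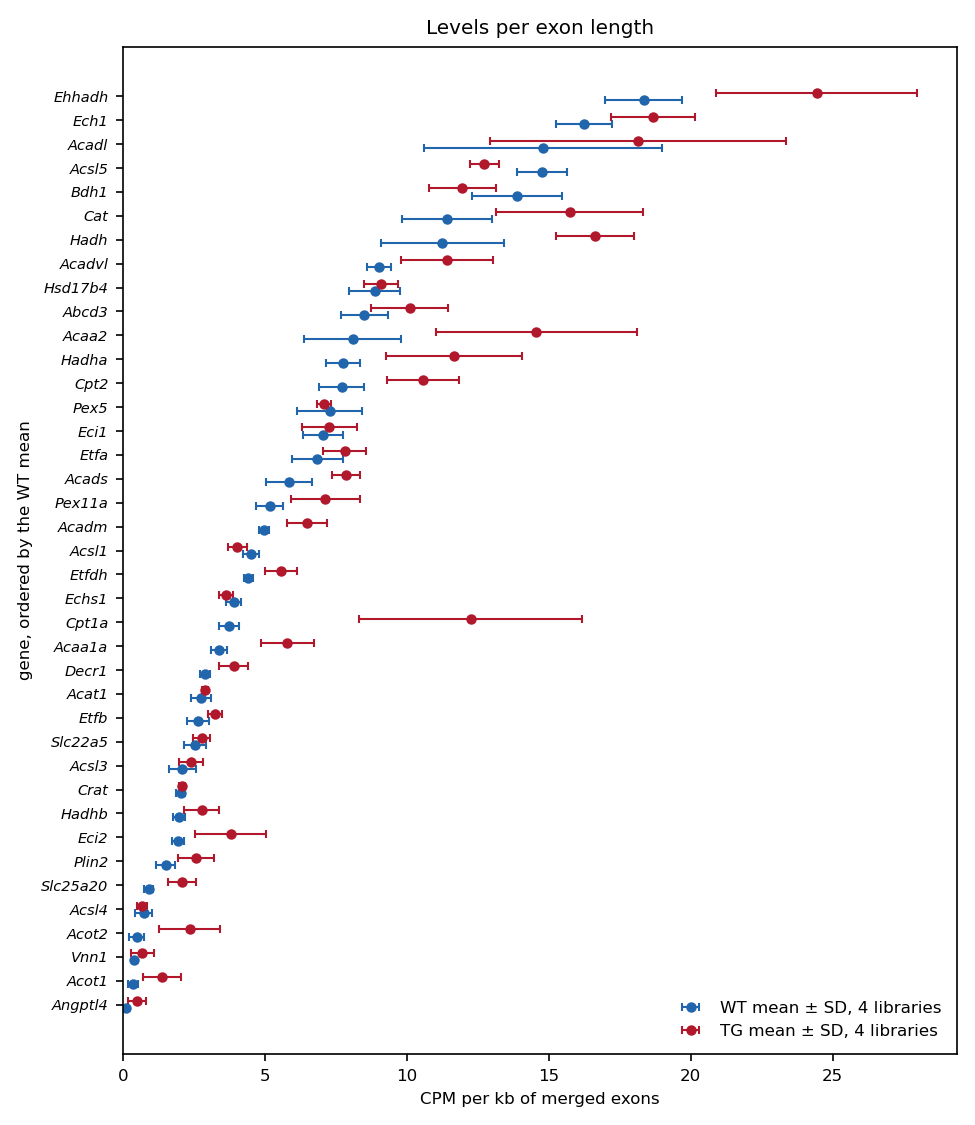
CPM per kb of merged exons (x axis) as mean ± SD of 4 libraries for WT (blue) and TG (red), with genes ordered by the WT mean and Cd36 and Acaa1b left out. Ehhadh leads in both groups, and Cpt1a moves from 3.74 in WT to 12.3 in TG.

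Promoter sequences were examined because 20 of these genes were higher in TG. PPAR receptors bind, as heterodimers with RXR, direct repeats of AGGTCA spaced by 1 base. RefSeq promoters on GRCm38.p6 were at hand for 34 of the 41 genes. Within 250 bases before the start, the full repeat, with any base as spacer, was found on either strand in 0 of them, and in 11 of 27025 genes (0.0407%). An exact match this rare could hardly be met among 34 promoters, so its absence shows nothing about PPAR sites. The single AGGTCA, only a part of that repeat, was searched on both strands. It was found in 7 of the 34 genes and in 5 of the 18 called genes that had a promoter. Over all genes it was found in 4260 of 27025 (15.8%). The carriers besides the 5 were Echs1, not called, and Cd36, not tested. Counts this small were not tested against the share of all genes, and nothing is read from them. These matches are letters in a window and do not show binding. The stretches around the site of the 5 called genes are given 5′ to 3′ on the strand of the gene, with the AGGTCA or its reverse complement in capitals.
Cpt1a (chr19:3323187-3323232, plus strand): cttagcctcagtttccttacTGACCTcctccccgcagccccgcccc
Acadvl (chr11:70015490-70015535, minus strand): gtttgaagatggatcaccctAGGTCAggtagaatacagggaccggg
Acadm (chr3:153944867-153944893, minus strand): gTGACCTtcgggctccggtgacactgg
Cat (chr2:103485332-103485377, minus strand): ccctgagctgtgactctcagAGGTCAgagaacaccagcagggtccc
Plin2 (chr4:86670252-86670297, minus strand): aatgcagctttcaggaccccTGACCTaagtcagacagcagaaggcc

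Hadha and Hadhb, the 2 subunits of 1 protein, are read in opposite directions from RefSeq starts 273 bases apart, and both were called higher in TG. The 228 bases that lie between these starts and belong to both promoter windows are shown because they are common to both genes. They are given on the plus strand, which is that of Hadhb, and neither motif was found in them.
Hadha and Hadhb (chr5:30155003-30155230, plus strand): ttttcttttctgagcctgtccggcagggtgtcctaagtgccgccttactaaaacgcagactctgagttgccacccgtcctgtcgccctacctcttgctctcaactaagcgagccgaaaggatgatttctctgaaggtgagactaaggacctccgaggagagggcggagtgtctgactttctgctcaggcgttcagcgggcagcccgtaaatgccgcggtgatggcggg

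A further 78 genes of the same pathways were listed by role. Of these 62 were tested, 11 were higher in TG, 4 were lower and 47 were not called, with a median log2 fold change of 0.05. Of all genes tested 8.26% were higher and 9.65% lower. Fatty acid oxidation and ketone body genes accounted for 5 higher and 0 lower of 19 tested, peroxisome genes for 2 higher and 3 lower of 32, which is near the share over all genes, and PPAR receptors, coactivators and classical targets for 4 higher and 1 lower of 11. The largest change was that of Pdk4 (ENSMUSG00000019577, chr6:5483097-5496339, minus strand), the kinase that inhibits pyruvate dehydrogenase. Pdk4 had 4, 2, 0 and 5 counts in WT replicates 1 to 4 and 340, 350, 22 and 166 counts in TG. All TG libraries were above all WT libraries, again with replicate 3 the lowest. Its fitted log2 fold change was 6.16 (SE 1.28), adjusted p = 0.0236 by edgeR, a value that rests on very few WT counts, and the call was lost in 6 of 8 leave-one-out fits. Pdk4, counted among the 4 higher of 11, passed the filter only through its TG libraries, where it is high. Its test is therefore given as a description and not as support.

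Creb3l3, a liver and gut transcription factor of lipid metabolism, was at 0.239, 0, 0.134 and 0.446 CPM in WT replicates 1 to 4 and at 3.31, 4.64, 1.64 and 3.11 CPM in TG (log2 fold change 3.92, SE 0.53, adjusted p = 0.000751 by edgeR). Its WT libraries held 3, 0, 2 and 6 counts, so that this value too rests on very few WT counts. Creb3l3, also counted among the 4 higher of 11, passed the filter only through its TG libraries. Its test is likewise given as a description. Acot4, a peroxisomal thioesterase next to Acot1 and Acot2, was at 1.84, 2.02, 1.87 and 1.49 CPM in WT and 5.31, 7.03, 2.09 and 6.61 CPM in TG (log2 fold change 1.53, SE 0.33, adjusted p = 0.00744). The peroxisomal membrane protein gene Pxmp4 was at 11.6, 11.8, 10.4 and 14.9 CPM in WT and 32.1, 41.1, 17.9 and 30.4 CPM in TG (log2 fold change 1.32, SE 0.23, adjusted p = 0.00500). For these 3 genes too, TG replicate 3 was the lowest TG library. Ppargc1a, the coactivator of PPAR receptors and of mitochondrial biogenesis, had a log2 fold change of 1.14 (SE 0.25), adjusted p = 0.00755 by edgeR. Acacb, the acetyl-CoA carboxylase whose product inhibits the Cpt1 enzymes, had a log2 fold change of 1.07 (SE 0.27), adjusted p = 0.0173, and the call was lost without TG replicate 2. Gstk1, a glutathione transferase of mitochondria and peroxisomes, had a log2 fold change of 0.82 (SE 0.24), adjusted p = 0.0279, and the call was lost in 4 of 8 leave-one-out fits. The fatty acid transporter Slc27a1 had a log2 fold change of 0.81 (SE 0.11), adjusted p = 0.000695. The 4 genes that were lower, named here after their values were seen, were Tysnd1, Nudt19, Pex2 and Gpd1, with log2 fold changes of -0.37, -0.32, -0.31 and -0.40 and adjusted p of 0.0256, 0.0437, 0.0412 and 0.0269 by edgeR. Their number fell to 0 without TG replicate 1, without TG replicate 2 or with total counts, to 1 without TG replicate 3, WT replicate 3 or WT replicate 4, and to 2 without TG replicate 4.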

How the data were processed

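Paneth cells had been sorted by FACS, RNA isolated with a column kit and libraries prepared with a stranded, poly(A)-selecting kit. The authors deposited 1 table of raw counts per gene and library, for 55414 Ensembl IDs. The submitters' processing notes name FastQC 0.12.0, STAR 2.7.0a, DESeq2 and mm39. The counting tool, its strand setting and its annotation are not given in the sources used. Groups and replicate numbers came from the labels.

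Symbols, positions and exon lengths were added from GENCODE M39 (GRCm39), which matched 54749 IDs. Promoters were taken from RefSeq (GRCm38.p6). Total counts of 13107397 to 16218434 per library set the precision. The lowest chi-square per degree of freedom between replicates was 5.20, so no library was a duplicate.

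For TG against WT the counts entered edgeR 4.0.16 under R 4.3.3 unchanged (TMM, filterByExpr by group, robust quasi-likelihood test, Benjamini-Hochberg adjustment over 11929 genes at 0.05). SEs are the log2 fold change over the square root of F. The study says of its samples in general that they came from individual mice, and p-values measure the spread between the libraries. Among the 41 genes, every library is given for those called and changed by 0.5 or more on the log2 scale. Of the further pathway genes the 8 called ones with the largest change were named. Genes, lists and tests were chosen with earlier results of these data known. One gene that this rule would name and 2 marker genes are not reported here, and they were taken out of their lists and all list counts and sums after the data were seen.

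The steps were tested on simulated data for TG over WT, where 82% of 200 genes changed by 1 on the log2 scale, among 11929 genes, were recovered, and 10 of 174 calls were false. With no change simulated, 1 gene was called. Smaller changes, as in most of the genes called here, were not simulated, and their recovery is not known. Alternatives were DESeq2 1.42.0, RLE factors, total counts, library sizes without the 10 most abundant genes, a replicate block, no filter on low counts, a minimum of 1 CPM in 4 libraries, Y-linked counts as covariate or split, a fold threshold, and leaving out each library.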

Additional observations from a re-analysis of the deposited data

Results flagged for a closer look

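Each gene was searched for a library that stood apart from the other 3 of its group, by the share of the range of the group that its gap to the nearest of them took (Dixon's test at the 95% level). Of 97 groups examined, 6 passed, against 4.85 given by chance. Pex11a in WT replicate 1 (18.8 CPM against 15.6 to 15.7 in the others) had a share of 0.965. Acadm in TG replicate 2 (47.4 CPM against 38.4 to 39.02) had a share of 0.926. Acsl1 in WT replicate 1 (79.8 CPM against 70.5 to 71.7) had a share of 0.865. Etfb in TG replicate 1 (5.62 CPM against 4.79 to 4.92) had a share of 0.847. Acsl3 in TG replicate 2 (16.5 CPM against 11.5 to 12.3) had a share of 0.833. Cd36 in WT replicate 3 had a share of 0.871, which rests on 0 counts against 1 count in each of the others.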

How the results depend on the processing

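The 20 called genes kept their direction in every alternative run. All 20 were called with DESeq2, RLE factors, library sizes without the 10 most abundant genes, no filter, the 1 CPM filter and the Y-linked covariate, and 19 with total counts, which put the median of all genes tested at 0.12 (log2). Deviations of same-numbered libraries from their group means had correlations of 0.0762, 0.0666, 0.286 and 0.231 for replicates 1 to 4. Between differently numbered libraries they ranged from -0.188 (TG 4 with WT 2) to 0.235 (TG 1 with WT 2). For replicates 3 and 4 the same-numbered library was the closest, so some structure by number cannot be set aside. The labels name no pairs, and the main fit did not take the numbers as pairs. With a replicate block 18 were called, without Hadhb and Plin2. DESeq2 called 21 genes higher and no filter 22, the additional ones being genes that did not pass the filter used in the report. DESeq2 called 1 gene lower, Acsl5. With total counts 0 further pathway genes and 263 of all genes were lower. A threshold of 1 on the absolute log2 fold change left 4 genes. Without Y-linked counts 1 further pathway gene was lower, and of all genes 500 were higher and 638 lower. With Y-linked counts 2 genes and 2 further pathway genes were higher, 0 of the latter were lower, and of all genes 113 were higher and 103 lower. Leaving out 1 library at a time gave 13 to 21 genes higher, 7 to 11 further pathway genes higher and 0 to 4 lower, and of all genes 485 to 1045 higher and 553 to 1183 lower. In the fit without TG replicate 1 the totals over all genes were 533 and 553. Summed levels per kb were 230.96 with merged exons and 363.4 with the longest transcript, which is shorter by construction.

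Among genes not called, the log2 fold change turned sign in some fits. It was −0.077 for Crat and −0.0072 for Vnn1 without Y-linked counts. With Y-linked counts it was −0.13 for Acsl3, 0.051 for Acsl4, −0.14 for Eci1, −0.026 for Acat1, −0.063 for Hsd17b4 and 0.17 for Pex5. With total counts it was 0.064 for Acsl4, 0.011 for Echs1 and 0.088 for Pex5. Leaving out 1 library at a time, it ranged from −0.019 to 0.065 for Crat, −0.24 to 0.24 for Acsl4, −0.038 to 0.11 for Eci1, −0.031 to 0.087 for Hsd17b4 and −0.10 to 0.067 for Pex5. The cause of these changes was not tested.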
